A study of Bos taurus with 10 samples.

Results

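Wnt proteins are secreted ligands that bind Frizzled receptors and the coreceptors LRP5 or LRP6 at the cell surface. In the canonical branch, binding stops the breakdown of beta-catenin, which then enters the nucleus and acts with TCF/LEF transcription factors. Secreted Frizzled-related proteins (SFRP) and WIF1 bind the ligands, Dickkopf (DKK) proteins act at the coreceptors, and R-spondins with LGR receptors keep Frizzled at the membrane. In muscle the pathway is known for its part in satellite cell activity and fibrosis, and in embryonic stem cells for its part in self-renewal.

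The genes described here were chosen by symbol: the Wnt, Fzd, Sfrp, Dkk and Rspo families, with Wif1, Lrp5, Lrp6, Lgr5, Ctnnb1, Axin2, Lef1, Tcf7, Tcf7l1 and Tcf7l2. They made up 50 of 21130 rows of the table: 19 ligands, 10 Frizzled receptors, 2 coreceptors, 8 antagonists, 5 genes of the R-spondin axis, and 6 genes of signal transduction and transcription. Measured values played no part in the rule. The table gave FPKM (a fragment count corrected for the length of the transcript and the size of the library), so that levels of different genes may be compared. Fragment numbers are unknown here, so no counting interval is given for any value.

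RNA came from frozen muscle of 24-month-old cattle, per the labels: 7 libraries labelled MSTN+/-, heterozygous at the myostatin gene, and 3 labelled wild type. Breed, sex, the kind of edit and the number of animals were not given in the sources used here, so p-values cover only the variation among these libraries, and that variation may be technical. The group names below are these labels. As labelled, the design addresses how muscle mRNA differs between the genotypes.

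The labelled species and tissue did not match the contents. Of the 50 rows, 49 were described as Mus musculus transcripts, and 0 of their gene identifiers and 0 of their 71 transcript accessions stood in a RefSeq gene table of cattle. Mstn itself was listed at 0 in 7 libraries and reached at most 0.18 FPKM, so it could not check the labels. Whether the values come from the labelled animals could not be checked with these files, and each comparison here is between columns that carry these labels. Of 12 skeletal muscle markers, Ttn, Myh4, Myh7 and Actn2 stayed below 1 FPKM in every library. The 12 summed to 24.4 to 54.9 FPKM across the MSTN+/- libraries and to 38.7, 167 and 136 FPKM in wild-type replicates 1, 2 and 3, where Mylpf alone gave 154.59 and 125.19 FPKM in replicates 2 and 3. Without Mylpf the sums were 14.2 to 30.2 FPKM and 37.9, 12.8 and 11.04 FPKM. Single muscle markers went both ways. Myh1 and Myh2 had every MSTN+/- value above every wild-type value, Myh2 at 5.73 to 15.29 FPKM, against at most 0.14 FPKM. Des had every MSTN+/- value below, at 1.12 to 2.69 FPKM, against 11.97, 4.95 and 3.04 FPKM in wild type. For the rest of the 12 the groups overlapped. Summed FPKM of 10 fibroblast markers was 3330 to 6252 in the MSTN+/- libraries and 7242, 602 and 521 in wild-type replicates 1, 2 and 3. Not every fibroblast marker followed that order. Dcn was at 168.64 to 323.66 FPKM in MSTN+/- libraries, against 24.27, 33.02 and 8.27 FPKM in wild type. Lum was at 45.22 to 99.94 FPKM, against 28.82, 11.65 and 4.66 FPKM. The summed FPKM of 10 pluripotency markers was 906 to 1562 in the MSTN+/- libraries and 2.29, 2711 and 3095 in the wild-type libraries, with Zfp42 and Utf1 at 0 in replicate 1. The pluripotency markers did not run in parallel: Pou5f1 ran from 633 to 848 FPKM over the MSTN+/- libraries, higher than its 0.38, 346 and 533 FPKM in wild type. The 8 markers other than Pou5f1 and Sox2 summed to 18.6 to 441 FPKM in the MSTN+/- libraries and to 1.39, 2142 and 2360 FPKM in wild type. Wild-type replicate 1 therefore stood apart from replicates 2 and 3, and results are given with and without it. These marker levels differ between the libraries compared below, and their part in the differences was not tested. In bulk RNA, fewer cells of a type and less RNA per cell cannot be told apart.

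**Figure D1:**
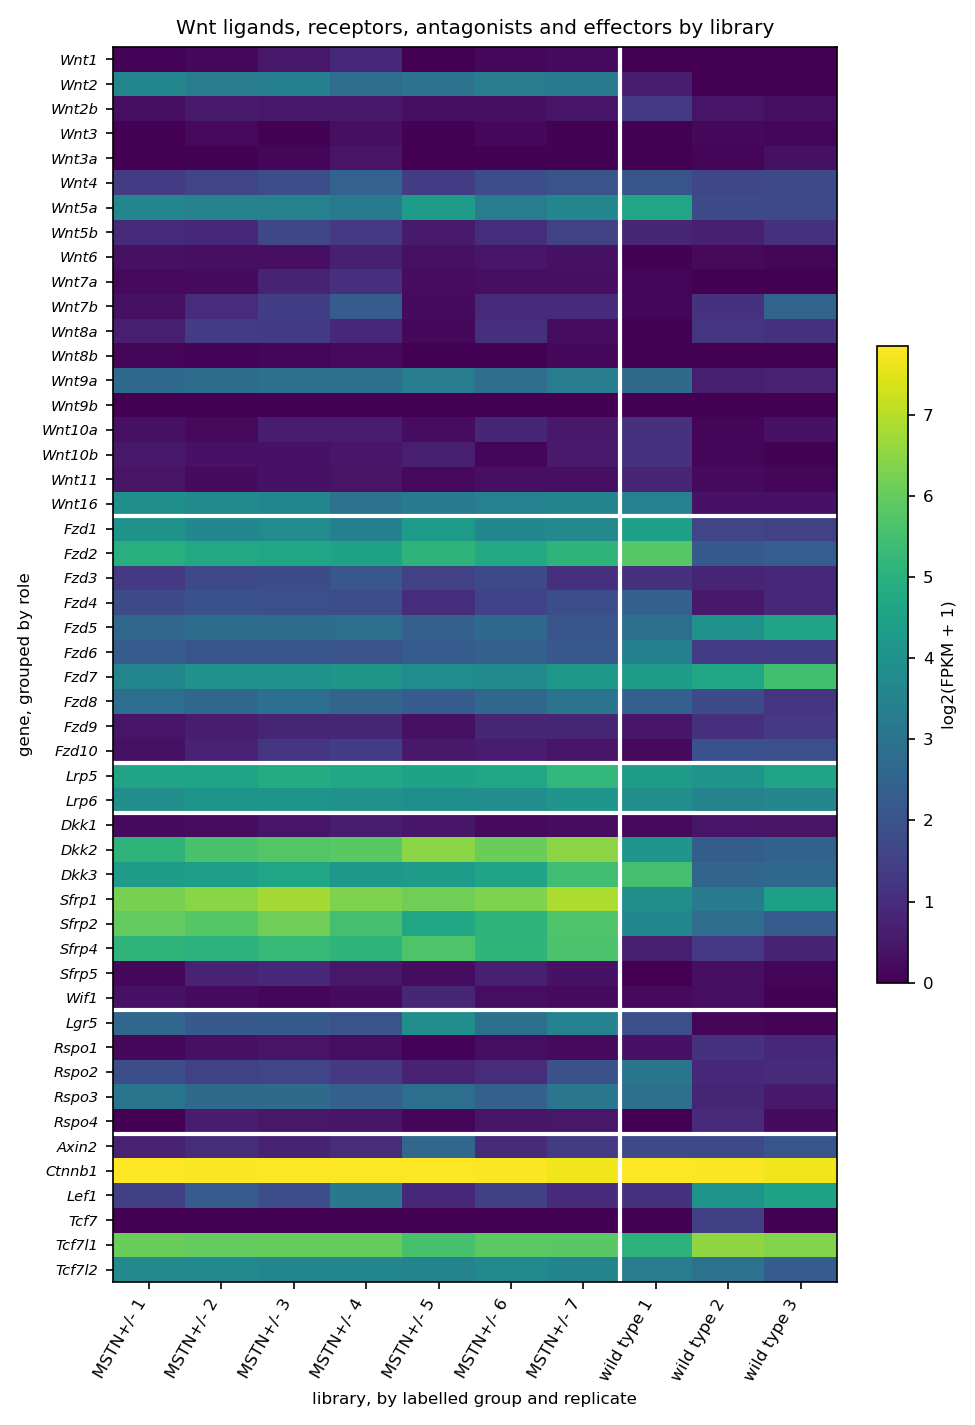
Level of each of the 50 Wnt pathway genes (rows, grouped by role, white lines between roles) in each library (columns; the vertical white line separates 7 MSTN+/- from 3 wild-type libraries), as log2(FPKM + 1). Ctnnb1 is bright in all 10 libraries, while the Sfrp1, Sfrp2, Sfrp4 and Dkk2 rows are bright in the MSTN+/- columns and darker in the wild-type columns.

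Of the 50 genes, 11 stayed below 1 FPKM in every library and 32 were tested, having reached 1 FPKM in 3 or more libraries. Differences were fitted with limma on log2(FPKM + 1) over all 14047 genes that passed this filter, and a log2 difference is the MSTN+/- mean minus the wild-type mean on that scale. At an adjusted p under 0.05, 13 of 32 were higher in MSTN+/- libraries (40.6%, against 31.8% of all genes tested) and 2 were lower (6.25%, against 12.8%). The other 17 did not pass, and 44.6% of all genes passed in either direction. The split was 10 higher and 2 lower with median-of-ratios scaling, and 9 higher and 5 lower with quantile normalization. With library weights it was 20 and 5, and Wnt5a, Fzd1, Fzd2, Fzd4, Fzd6, Fzd10, Lrp5, Dkk3, Lef1 and Tcf7l1 were then past the threshold as well. Of the calls over all genes, 50.3% were higher with median-of-ratios scaling, 42.7% with quantile normalization and 57.1% with library weights. That share was 71.3% in the main fit, so the splits are not read alone. The share of all genes called in each direction is not given for median-of-ratios scaling, quantile normalization or library weights. The median log2 difference of the 32 was 0.54, beside 0.17 for all genes tested. Of the 32, 17 were at 1 FPKM or more in all 10 libraries, and 1, Wnt2, passed the filter through MSTN+/- libraries alone. Sfrp4, Lgr5, Wnt9a, Wnt16, Rspo3 and Fzd3 reached 1 FPKM in only 1 wild-type library. They too could not pass the filter without MSTN+/- libraries. The filter thus favoured the direction of Wnt2 and of these genes, and their tests are not independent support.

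Every MSTN+/- value lay above every wild-type value for 7 genes (21.9%, against 25.2% of all genes): Wnt2, Sfrp1, Sfrp2, Sfrp4, Dkk2, Lgr5 and Tcf7l2. Every MSTN+/- value lay below for 1, Fzd7 (3.12%, against 6.86%). These shares are close to or under those of all genes. For 16 of the 32 (50.0%, and 50.0% of all genes) the MSTN+/- median lay between the lowest and the highest wild-type library.

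Of the secreted and cell-surface classes, the antagonists had the highest summed level in MSTN+/- libraries. The 8 genes summed to between 222 and 348 FPKM there, and to 88.2, 25.7 and 34.9 FPKM in wild-type replicates 1, 2 and 3. Of 5 tested, 4 were higher in MSTN+/- libraries (against 31.8% of all genes), and the fifth, Dkk3, was not called. The median log2 difference of the 5 was 2.65.

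Sfrp4 (gene 20379), a secreted Frizzled-related protein gene, ran from 31.71 through a median of 34.15 to 50.15 FPKM across the 7 MSTN+/- libraries. For wild-type replicates 1, 2 and 3 it was at 0.57, 1.47 and 0.73 FPKM. All 7 values lay far above all 3, and the MSTN+/- median was 59.9, 23.2 and 46.8 times the value in wild-type replicates 1, 2 and 3. The log2 difference was 4.37 with a standard error (SE) of 0.19 (limma adjusted p = 1.44e-07). Sfrp4 passed the filter only with MSTN+/- libraries, so its test is not independent support. Its family member Sfrp1 (gene 20377) ran from 69.46 through 78.79 to 117.41 FPKM across the MSTN+/- libraries, against 13.63, 8.55 and 20.52 FPKM in wild type. It was the most abundant antagonist in 6 of the MSTN+/- libraries, all but replicate 5, and in wild-type replicates 2 and 3. On the log2 scale the difference was 2.60 (SE 0.24, limma adjusted p = 2.68e-05), and 2.58 with wild-type replicate 1 as the only wild type. Sfrp2 (gene 20319) ran from 24.64 through 50.57 to 69.44 FPKM, against 11.69, 5.97 and 3.74 FPKM, and the log2 difference was 2.65 (SE 0.35, limma adjusted p = 2.70e-04). In all 3 genes the groups did not overlap, and each call held without wild-type replicate 1 and against it alone.

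The Dickkopf genes differed from one another. Dkk2 (gene 56811), a coreceptor-binding modulator, ran from 33.30 through 56.19 to 88.99 FPKM across the MSTN+/- libraries and was at 16.53, 3.97 and 4.37 FPKM in wild type. The log2 difference came to 2.95 (SE 0.41, limma adjusted p = 3.70e-04), or 1.77 with wild-type replicate 1 as the only wild type (0.0107). Dkk3 (gene 50781), a divergent member of the family, ran from 17.27 through 20.29 to 42.01 FPKM, against 45.43, 4.93 and 5.10 FPKM. Wild-type replicate 1 thus lay above, and replicates 2 and 3 below, all 7 MSTN+/- values. Over all libraries its log2 difference of 0.98 was not called (SE 0.57, limma adjusted p = 0.180). Without wild-type replicate 1 it was 1.96 (8.46e-05), and, set against that replicate alone, it was -0.98 (0.0584). Dkk1, Sfrp5 and Wif1 stayed below 1 FPKM in every library, at no more than 0.84 FPKM.

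**Figure D2:**
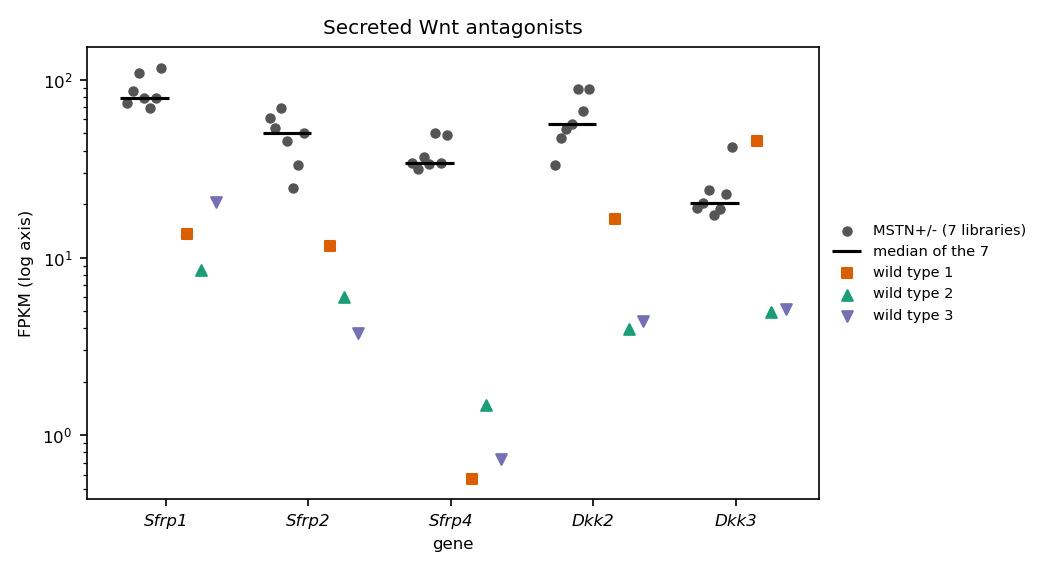
FPKM (log axis) of 5 secreted antagonists in each library: grey points are the 7 MSTN+/- libraries, the black bar their median, and coloured symbols the 3 wild-type libraries. For Sfrp1, Sfrp2, Sfrp4 and Dkk2 all grey points lie above the coloured symbols, while for Dkk3 wild-type replicate 1, at 45.43 FPKM, lies above them.

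The ligands summed to lower levels than the antagonists in every library. The 19 ligands summed to between 41.8 and 48.3 FPKM across the MSTN+/- libraries, 48.8 FPKM in wild-type replicate 1, and 9.67 and 13.8 FPKM in replicates 2 and 3. Of 8 tested, Wnt2, Wnt9a and Wnt16 were higher in MSTN+/- libraries, none was lower, and 5 were not called. That share of 37.5% higher was near the 31.8% of all genes. Wnt5a led the ligands in 3 MSTN+/- libraries and in wild-type replicates 1 and 2, Wnt16 in the other 4 MSTN+/- libraries, and Wnt7b in wild-type replicate 3.

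Wnt2 (gene 22413), which encodes a canonical ligand, ran from 6.06 through 8.87 to 11.08 FPKM across the MSTN+/- libraries. It was at 0.52 FPKM in wild-type replicate 1 and listed at 0 in replicates 2 and 3. Because Wnt2 passed the filter through MSTN+/- libraries alone, its lack of overlap and its p-values are not independent support. The groups did not overlap, and the log2 difference was 3.04 (SE 0.19, limma adjusted p = 1.85e-06), or 5.54 with a pseudocount of 0.1. With wild-type replicate 1 as the only wild type it was 2.64 (5.01e-05). Wnt2 was the only ligand called in that fit with a higher MSTN+/- level.

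Wnt16 and Wnt9a followed another pattern, in which wild-type replicate 1 lay within the MSTN+/- range. Both passed the filter only with MSTN+/- libraries, so their tests are not independent support. Wnt16 (gene 93735) ran from 7 through 10.58 to 13.87 FPKM across the MSTN+/- libraries, and was at 9.98, 0.30 and 0.30 FPKM in wild type. Its log2 difference was 2.08 (SE 0.57, limma adjusted p = 0.0148), or 0.02 when only wild-type replicate 1 was used as wild type (0.950). Wnt9a (gene 216795) ran from 5.40 through 6.41 to 9.13 FPKM, against 5.62, 0.57 and 0.66 FPKM, and the log2 difference was 1.59 (SE 0.39, limma adjusted p = 0.00905). Against wild-type replicate 1 alone it was 0.23 (0.475). Both calls were also lost without wild-type replicate 2 (adjusted p of 0.0828 for Wnt16 and 0.0526 for Wnt9a) and without replicate 3 (0.0825 and 0.0520). Without wild-type replicate 1 the log2 difference of Wnt16 was 3.10 (6.06e-07), and it was 3.13 with a pseudocount of 0.1 and 3.12 with library weights.

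Wnt5a (gene 22418), the best known ligand of the beta-catenin-independent branch, ran from 8.33 through 9.97 to 19.33 FPKM across the MSTN+/- libraries. In wild type it was at 24.03, 2.48 and 2.30 FPKM, so replicate 1 lay above and replicates 2 and 3 below all 7. Its log2 difference of 0.85 was not called (SE 0.55, limma adjusted p = 0.224). It was 1.82 without wild-type replicate 1 (7.23e-05) and -1.07 against that replicate alone (0.0286), so the direction turned with the wild-type library used.

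Of the other ligands, Wnt4, Wnt5b, Wnt7b and Wnt8a were tested and not called. Wnt4 was at 1.60 to 4.50 FPKM across the MSTN+/- libraries, compared with 2.18 to 3.12 FPKM in wild type, and Wnt5b at 0.47 to 2.21 and 0.62 to 1.19 FPKM. Wnt7b ranged most among the MSTN+/- libraries, from 0.18 to 3.90 FPKM, and was at 0.08, 1.18 and 4.73 FPKM in wild type. Wnt8a was at 0.13 to 1.55 FPKM, and at 0, 1.26 and 1.19 FPKM in wild type. Of the untested ligands, Wnt2b, Wnt10a and Wnt10b reached 1 FPKM in wild-type replicate 1 alone, at 1.46, 1.16 and 1.17 FPKM, and Wnt7a reached 1.14 FPKM in MSTN+/- replicate 4. Wnt1, Wnt3, Wnt3a, Wnt6, Wnt8b, Wnt9b and Wnt11 stayed below 1 FPKM everywhere. Among them Wnt1, Wnt8b and Wnt9b had a listed value of 0 in each wild-type library, and Wnt9b was above 0 only in MSTN+/- replicate 3, at 0.02 FPKM.

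All 10 Frizzled genes reached 1 FPKM in at least 1 library, and the leading receptor differed between wild-type libraries. Fzd2 made up 31.0% to 41.4% of summed Frizzled FPKM across the MSTN+/- libraries and 45.7% in wild-type replicate 1, but 6.68% and 4.98% in replicates 2 and 3. Fzd7 made up 14.7% to 23.6% in the MSTN+/- libraries and 15.9% in wild-type replicate 1, but 44.4% and 53.3% in replicates 2 and 3. Fzd5 was at 27.8% and 28.4% in replicates 2 and 3, and at no more than 8.81% in the other libraries. The summed FPKM was 70.5 to 81.5 in the MSTN+/- libraries and 122, 54.2 and 80.9 in wild-type replicates 1, 2 and 3.

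**Figure D3:**
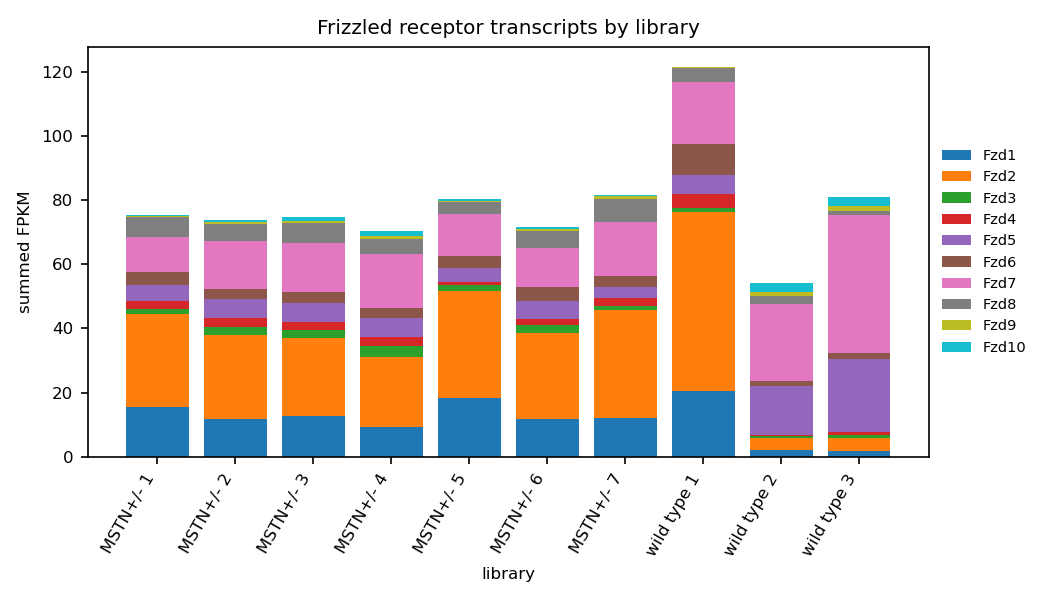
Summed FPKM of the 10 Frizzled genes in each library (bars, linear axis from 0), divided by gene. Fzd2 is the largest segment in the 7 MSTN+/- libraries and wild-type replicate 1, and Fzd7 in wild-type replicates 2 and 3, where Fzd5 is next.

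Of 9 receptors tested, Fzd5 and Fzd7 were lower in MSTN+/- libraries, Fzd3 and Fzd8 were higher, and 5 were not called. The shares were 22.2% in each direction, against 31.8% higher and 12.8% lower among all genes. Fzd7 (gene 14369), a receptor well described in stem cells, ran from 11.08 through 15.09 to 17.11 FPKM across the MSTN+/- libraries, and was at 19.29, 24.09 and 43.10 FPKM in wild type. It was the one gene with every MSTN+/- value below every wild-type value. The log2 difference was -0.89 (SE 0.22, limma adjusted p = 0.00971), -0.57 without wild-type replicate 3, and -0.41 against wild-type replicate 1 alone (0.136). Fzd5 (gene 14367) ran from 3.24 through 5.43 to 6.21 FPKM, against 6.09, 15.06 and 22.94 FPKM, so that wild-type replicate 1 lay within the MSTN+/- range. On the log2 scale the difference was -1.21 (SE 0.32, limma adjusted p = 0.0120). The call was lost without wild-type replicate 2 (-1.11, 0.0544) or 3 (-0.82, 0.0626), and against replicate 1 alone it was -0.23 (0.490).

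Fzd8 (gene 14370) ran from 3.82 through 5.31 to 7.09 FPKM, against 4.29, 2.47 and 1.30 FPKM, and the log2 difference was 0.89 (SE 0.24, limma adjusted p = 0.0135). The call was lost without wild-type replicate 3 (0.59, 0.0674), with quantile normalization (0.45, 0.145) and against replicate 1 alone (0.28, 0.354). Fzd3, whose product acts in planar polarity and axon guidance, was at 1.14 to 3.34 FPKM across the MSTN+/- libraries, compared with 1.19, 0.75 and 0.87 FPKM in wild type. Its log2 difference of 0.67 (SE 0.21, limma adjusted p = 0.0277) was lost under 8 of 18 alternatives. Among them were leaving out wild-type replicate 2 (0.106) or 3 (0.0875), leaving out MSTN+/- replicate 2, 3 or 6 (0.0501 to 0.0508), and quantile normalization (0.05, 0.844).

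Fzd1, Fzd2, Fzd4 and Fzd6 shared 1 order of libraries: wild-type replicate 1 above all 7 MSTN+/- values, and replicates 2 and 3 below all 7. Fzd2 (gene 57265) ran from 21.88 through 26.95 to 33.60 FPKM across the MSTN+/- libraries, and was at 55.56, 3.62 and 4.03 FPKM in wild type. Fzd1 (gene 14362) ran from 9.38 through 12.20 to 18.35 FPKM, against 20.65, 2.12 and 1.89 FPKM. Fzd4 was at 1.04 to 2.92 FPKM, against 4.46, 0.46 and 0.86 FPKM. Fzd6 was at 3.06 to 4.34 FPKM, against 9.52, 1.61 and 1.67 FPKM.

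None of the 4 was called over all libraries, and each was called when wild-type replicate 1 was left out or with library weights. Without wild-type replicate 1 the log2 differences were 2.20 for Fzd1 (limma adjusted p = 4.62e-06), 2.57 for Fzd2 (3.48e-07), 1.0 for Fzd4 (0.00346) and 0.79 for Fzd6 (3.00e-04). Against that replicate alone they were -0.65 (0.0776), -0.98 (0.00471), -0.73 (0.0898) and -1.21 (5.88e-04). Fzd2 and Fzd6 were therefore called in opposite directions depending on the wild-type library, in fits that share the MSTN+/- libraries. Over all libraries the values were 1.25 (0.0779), 1.38 (0.102), 0.42 (0.367) and 0.12 (0.809), and with quantile normalization those of Fzd4 and Fzd6 were -0.12 and -0.32. The adjusted p of Fzd1 ranged from 3.05e-06 to 0.336 over its alternatives, and that of Fzd2 from 3.48e-07 to 0.417. Fzd10 had the reverse order, at 0.29 to 1.67 FPKM across the MSTN+/- libraries, compared with 0.15, 2.95 and 2.74 FPKM in wild type. Its log2 difference was -0.60 (0.229), -1.18 without wild-type replicate 1 (0.00337) and -1.20 with quantile normalization (0.00855). Fzd9, not tested, was at 0.29 to 0.81 and at 0.39, 1.09 and 1.46 FPKM.

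Of the coreceptors, Lrp6 was called and Lrp5 was not. Lrp5 (gene 16973) ran from 22.67 through 23.84 to 35.52 FPKM across the MSTN+/- libraries, and was at 18.60, 15.72 and 22.85 FPKM in wild type. Its log2 difference of 0.41 was not called (SE 0.16, limma adjusted p = 0.0590), but it was 0.55 when wild-type replicate 3 was left out (0.0413), 0.48 with library weights (0.00667) and 0.21 with median-of-ratios scaling (0.319). Lrp6 (gene 16974) ran from 13.54 through 15.27 to 16.12 FPKM, against 13.83, 10.34 and 11.44 FPKM. The fitted log2 difference was 0.30 (SE 0.11, limma adjusted p = 0.0462), the smallest among the genes called. That call was lost under 14 of 19 alternatives, among them leaving out any 1 MSTN+/- library (0.0563 to 0.0831) or wild-type replicate 2 (0.198) or 3 (0.129). The value itself was 0.10 with median-of-ratios scaling (0.525), 0.12 with quantile normalization (0.426) and 0.089 against wild-type replicate 1 alone (0.570). Lrp5 exceeded Lrp6 in all 10 libraries and made up 57.4% to 68.8% of their summed FPKM.

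**Figure D4:**
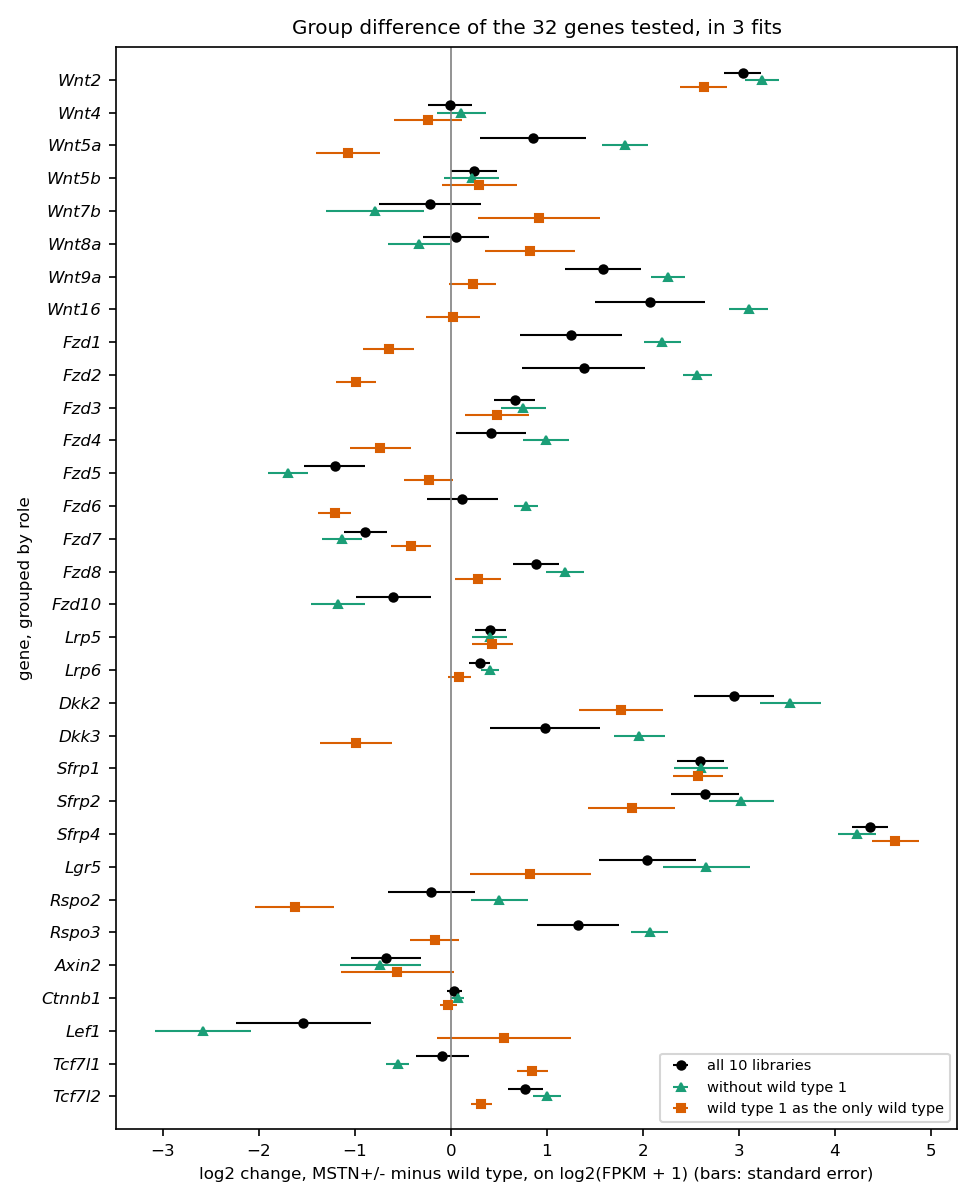
Log2 difference (MSTN+/- minus wild type, on log2(FPKM + 1); bars are standard errors from limma) of the 32 genes tested, with all 10 libraries, without wild-type replicate 1, and with that replicate as the only wild type. Sfrp1, Sfrp4 and Wnt2 stay well above 0 in all 3 fits, while Fzd2, Fzd6 and Wnt5a lie on opposite sides of 0 in the last pair of fits.

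In the R-spondin axis, Lgr5 and Rspo3, 2 of the 3 tested, were higher in MSTN+/- libraries (66.7%, against 31.8% of all genes). Lgr5 and Rspo3 passed the filter only with MSTN+/- libraries, so their tests are not independent support. Rspo2 was not called. Lgr5 (gene 14160), an R-spondin receptor and stem cell marker of gut and skin, ran from 2.98 through 5.06 to 13.83 FPKM across the MSTN+/- libraries, and was at 2.79, 0.07 and 0.06 FPKM in wild type. The groups did not overlap, but wild-type replicate 1 lay just under the lowest MSTN+/- value. The log2 difference was 2.05 (SE 0.50, limma adjusted p = 0.00870), 3.74 with a pseudocount of 0.1, and 0.83 against wild-type replicate 1 alone (0.315).

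Rspo3 (gene 72780), a secreted enhancer of Wnt signalling, ran from 4.30 through 5.56 to 7.42 FPKM, against 6.51, 0.75 and 0.45 FPKM in wild type. Its log2 difference was 1.33 (SE 0.43, limma adjusted p = 0.0299), 2.07 without wild-type replicate 1 (6.92e-06) and -0.16 against that replicate alone (0.627). The call was also lost without wild-type replicate 2 (0.141) or 3 (0.156), without MSTN+/- replicate 1 (0.0533), 5 (0.0506) or 7 (0.0543), and with median-of-ratios scaling (0.0622) or quantile normalization (0.84, 0.118). Rspo2 was at 0.69 to 2.83 FPKM across the MSTN+/- libraries, compared with 7.36, 0.87 and 0.95 FPKM in wild type. The log2 difference came to -0.20 (0.731), and -1.62 against wild-type replicate 1 alone (0.0114). Rspo1 reached 1.15 FPKM in wild-type replicate 2, and Rspo4 stayed below 1 FPKM everywhere.

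Beta-catenin itself was nearly level across the libraries. Ctnnb1 (gene 12387) was at 203.99 to 229.24 FPKM across the MSTN+/- libraries, with a median of 225 FPKM, and at 226.33, 220.09 and 202.34 FPKM in wild type. The groups overlapped, and the log2 difference was 0.04 (SE 0.08, limma adjusted p = 0.712), of either sign across the alternatives (-0.18 to 0.09). Within the MSTN+/- libraries its coefficient of variation (SD over mean) was 3.78%, the lowest of the 30 pathway genes with a mean of at least 1 FPKM there. The median over those 30 was 22.0%, against 12.8% for all genes at that level.

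The TCF/LEF genes, which encode the DNA-binding partners of beta-catenin, were dominated by Tcf7l1, a member known mainly as a repressor. It made up 75.7% to 83.0% of the FPKM of the 4 genes in every library. Tcf7l1 (gene 21415) ran from 46.39 through 60.88 to 65.98 FPKM across the MSTN+/- libraries, between 32.13 FPKM in wild-type replicate 1 and 92.85 and 80.80 FPKM in replicates 2 and 3. The fitted log2 difference was -0.09 (SE 0.27, limma adjusted p = 0.814). It was -0.55 without wild-type replicate 1 (0.00220), 0.85 against that replicate alone (0.00302), 0.20 without replicate 2 (0.620) and 0.10 without replicate 3 (0.836).

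Tcf7l2 (gene 21416) was the one gene called of 5 tested in this class. It ran from 10.49 through 11.18 to 12.09 FPKM across the MSTN+/- libraries, above 8.87, 6.74 and 3.86 FPKM in wild type. Its log2 difference was 0.78 (SE 0.18, limma adjusted p = 0.00683). It was 0.49 without wild-type replicate 3, 0.48 with quantile normalization and 0.32 against replicate 1 alone (0.0436), past the threshold in each.

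Lef1 (gene 16842), an activating member that is also a target of the pathway, ran from 0.89 through 1.79 to 7.80 FPKM across the MSTN+/- libraries, and was at 1.24, 15.79 and 22.10 FPKM in wild type. Wild-type replicates 2 and 3 lay above all 7 and replicate 1 within them. Its log2 difference of -1.53 was not called (SE 0.70, limma adjusted p = 0.0975). Without wild-type replicate 1 it was -2.58 (9.60e-04), without replicate 3 it was -0.90, and it was 0.56 against replicate 1 alone (0.546). With all libraries Lef1 was called lower under quantile normalization (-1.88, 0.0305) and with library weights (-2.34, 5.14e-04). Tcf7 was listed at 0 in 9 libraries and at 1.78 FPKM in wild-type replicate 2.

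Axin2 (gene 12006), a negative regulator widely used as a readout of canonical signalling, was at 0.64 to 1.56 FPKM in 6 MSTN+/- libraries, compared with 4.98 FPKM in replicate 5. In wild type it was at 2.36, 2.42 and 3.23 FPKM, above those 6 libraries and below replicate 5. Over all libraries its log2 difference of -0.67 was not called (SE 0.36, limma adjusted p = 0.149). Without MSTN+/- replicate 5 it was -0.91 (0.00350), and with all libraries under quantile normalization it was -1.24 (0.0261), past the threshold in both. Replicate 5 also had the highest Lgr5 of the MSTN+/- libraries, at 13.83 FPKM, but the lowest Lef1, at 0.89 FPKM. That order rests on 1 library. Wild-type replicates 2 and 3, with Axin2 at 2.42 and 3.23 FPKM, had the highest Lef1, at 15.79 and 22.10 FPKM.

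**Figure D5:**
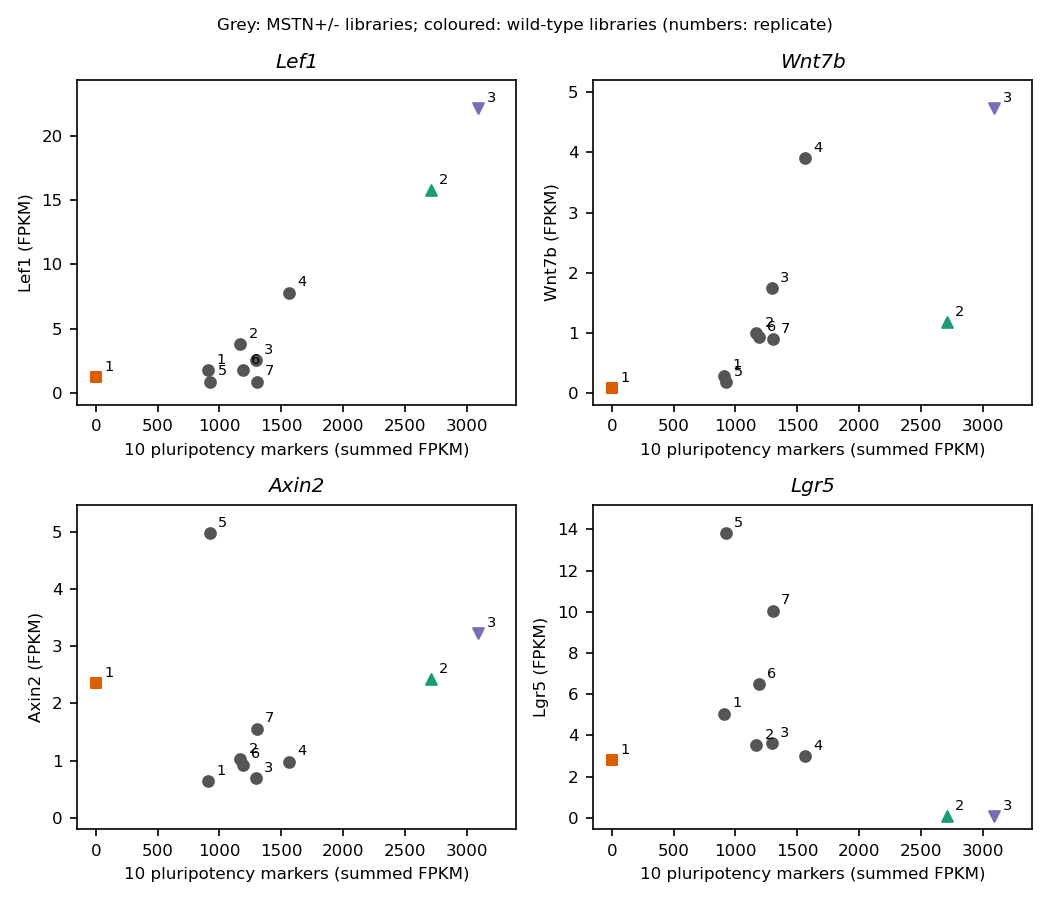
FPKM of Lef1, Wnt7b, Axin2 and Lgr5 (vertical axes) against the summed FPKM of 10 pluripotency markers (horizontal axes) in each library; grey points are MSTN+/- and coloured symbols wild-type libraries, numbered by replicate. MSTN+/- replicate 4 has the highest marker sum of its group (1562), Lef1 (7.80 FPKM) and Wnt7b (3.90 FPKM), and replicate 5 the highest Axin2 and Lgr5.

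The MSTN+/- libraries also differed among themselves. Replicate 4 held the highest value of that group for 14 of the 50 genes, 8 of them ligands (Wnt1, Wnt3, Wnt3a, Wnt4, Wnt6, Wnt7a, Wnt7b and Wnt8b), with Fzd3, Fzd5, Fzd9, Fzd10, Dkk1 and Lef1. Of these 14, only Fzd5, at 6.21 FPKM, Wnt4, at 4.50 FPKM, Wnt7b, Lef1, Wnt7a, Fzd10 and Fzd3 were above 1 FPKM there. It also held the lowest Wnt2, Wnt5a, Wnt16, Fzd1, Fzd2, Fzd6, Dkk3, Lgr5 and Rspo3. In this library the pluripotency markers summed to 1562 FPKM, the highest of the group, and the fibroblast markers to 3330 FPKM, the lowest. Replicate 5 held the lowest value for 17 genes and the highest for 9, among them Wnt5a, Wnt9a, Dkk2, Sfrp4, Lgr5 and Axin2. Its pluripotency and fibroblast markers summed to 924 and 5178 FPKM. Without Pou5f1 and Sox2 the pluripotency markers summed to 18.6 FPKM in replicate 5, the lowest of the group, and to 441 FPKM in replicate 4, the highest. The part of the marker levels in these differences was not tested. Replicate 4 also had the most genes at 1 FPKM or more of any library (13858). How often each library held the highest or lowest value over all genes is not given. The counts are therefore not read as a result about this pathway.

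Over the 50 genes, log2(FPKM + 1) values of the MSTN+/- libraries had a Pearson's r of 0.940 to 0.995 among themselves, and with wild-type replicate 1 of 0.829 to 0.871 and with replicates 2 and 3 of 0.652 to 0.784. The value between wild-type replicates 2 and 3 was 0.970, and those of replicate 1 with them were 0.711 and 0.727. The correlations run across genes and describe these libraries only, since genes do not replicate one another.

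The wild-type libraries were placed differently around the MSTN+/- range. Of the 32 genes tested, wild-type replicate 1 lay above all 7 MSTN+/- values for 8 (25.0%, against 19.8% of all genes) and below all 7 for 12 (37.5%, against 50.0%). Wild-type replicates 2 and 3 both lay below all 7 for 19 (59.4%, against 42.0%) and both above for 5 (15.6%, against 31.7%). Those 5 were Fzd5, Fzd7, Fzd10, Lef1 and Tcf7l1.

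Without wild-type replicate 1, limma called 19 genes higher (59.4%, against 42.2% of all genes) and 5 lower (15.6%, against 31.9%) in MSTN+/- libraries. Leaving out wild-type replicate 2 gave 8 higher and 1 lower, beside 25.2% and 5.71% of all genes. Leaving out replicate 3 also gave 8 and 1, beside 24.8% and 5.70%. With replicate 1 as the only wild type, which assumes that this library varies like the 7, 31 genes could be tested. Then 7 were higher (Wnt2, Dkk2, Sfrp1, Sfrp2, Sfrp4, Tcf7l1 and Tcf7l2) and 4 lower (Wnt5a, Fzd2, Fzd6 and Rspo2), beside 33.7% and 10.8% of all genes.

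A list of 82 further genes of the pathway covered ligand secretion, other receptors, inhibitors, cytoplasmic and nuclear components, planar polarity and target genes. Of the 72 tested, 25 were higher in MSTN+/- libraries (34.7%, against 31.8% of all genes), 9 lower (12.5%, against 12.8%) and 38 not called. Their median log2 difference was 0.31. The 25 and 9 became 40 and 20 without wild-type replicate 1, 15 and 6 without replicate 2, and 16 and 4 without replicate 3. The shares of all genes in these fits were 42.2% and 31.9%, 25.2% and 5.71%, and 24.8% and 5.70%. Receptors and coreceptors had 7 of 12 higher (58.3%) and none lower. Against wild-type replicate 1 alone the log2 differences of those 7 stayed above 0. Those of Adgra2, Ryk, Ror2 and Ptk7, not called with all libraries, were then -1.91, -1.13, -0.97 and -0.59. The cytoplasmic components had 7 of 21 higher (33.3%) and 6 lower (28.6%). Over all genes 31.8% were higher and 12.8% lower.

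Among those called with a group mean of at least 5 FPKM, the highest changes included 2 further inhibitors, Sostdc1 and Apcdd1. Of 7 secreted inhibitors on the list 4 were tested, and these 2 were higher (50.0%, against 31.8% of all genes). Frzb (log2 difference -0.04, limma adjusted p = 0.921) and Igfbp4 (0.38, 0.466) were not called. Sost, Cer1 and Draxin were not tested. Sostdc1 (gene 66042), an antagonist of BMP and Wnt signalling, was at 51.93 to 92.00 FPKM across the MSTN+/- libraries, compared with 0.53, 0.11 and 0.11 FPKM in wild type. Like Wnt2, it passed the filter through MSTN+/- libraries alone, so the filter favoured its direction and its test is not independent support. On the log2 scale the difference was 5.82 (SE 0.20, limma adjusted p = 2.76e-08). Apcdd1, a membrane-bound inhibitor, was at 30.75 to 94.26 FPKM, against 8.96, 3.46 and 2.66 FPKM, and the log2 difference was 3.08 (limma adjusted p = 1.41e-04). Prickle2, a planar polarity gene, was at 8.76 to 11.24 FPKM, against 2.20, 0.64 and 0.64 FPKM. Prickle2 also passed the filter only with MSTN+/- libraries, so its test is not independent support. Reck, a Wnt7 coreceptor and protease inhibitor gene, was at 15.34 to 27.01 FPKM, against 6.41, 3.95 and 2.82 FPKM. In these 4 the groups did not overlap, and the calls held against wild-type replicate 1 alone. The target gene Wisp2 was at 30.55 to 77.14 FPKM, against 49.91, 1.69 and 3.53 FPKM. Its log2 difference of 2.53 (limma adjusted p = 0.0178) was 3.82 without wild-type replicate 1 and -0.05 against it alone (0.922), 3.91 with library weights, and the call was lost without replicate 2 (0.0977) or 3 (0.0899).

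Among those called with a group mean of at least 5 FPKM, the lowest changes were in Ctbp2, Dvl2, Tnks2, Tle1 and Rhoa. Dact1, also called lower (-1.10), had group means under that level. Tle1, a corepressor of the TCF factors, was at 6.79 to 8.08 FPKM across the MSTN+/- libraries, compared with 13.14, 9.04 and 11.30 FPKM in wild type, and the log2 difference was -0.53 (SE 0.12, limma adjusted p = 0.00477). It was -0.35 with library weights. Rhoa, a GTPase of the planar polarity branch, was at 68.00 to 87.89 FPKM, against 121.22, 103.33 and 95.90 FPKM, and the log2 difference was -0.46 (0.00951). Both kept all MSTN+/- values below all wild-type values.

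The corepressor gene Ctbp2 was at 26.56 to 42.45 FPKM, against 26.76, 123.86 and 131.08 FPKM. Dvl2, which relays the signal from Frizzled, was at 12.46 to 18.88 FPKM, against 17.76, 32.21 and 34.15 FPKM. The tankyrase gene Tnks2 was at 26.31 to 36.87 FPKM, against 31.06, 63.54 and 73.56 FPKM. In these 3, wild-type replicate 1 lay within the MSTN+/- range, and none was called against it alone (limma adjusted p of 0.322, 0.348 and 0.870). With all libraries their log2 differences were -1.18 (0.0417), -0.80 (0.00866) and -0.78 (0.0199). The call of Ctbp2 was also lost without wild-type replicate 2 (0.196) or 3 (0.204) and without any 1 MSTN+/- library but replicate 4 (0.0591 to 0.0719), and its log2 difference was -1.92 without wild-type replicate 1 and -1.81 with library weights. That of Tnks2 was lost without wild-type replicate 2 (0.0951) or 3 (0.108).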

How the data were processed

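The authors deposited 1 table with an FPKM value for each gene in each library, per the file headers, to 2 decimals. Aligner, counter and build were not given in the sources used here. Columns were tied to libraries by title, groups to the genotype label, and replicate numbers follow the order of the records. No column was unused (0). Count models were not used on FPKM. Depth is unknown; fragment steps of low genes put it at 1 to 1.21 times that of MSTN+/- replicate 1, in a search near equal depth.

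Genes that reached 1 FPKM in 3 or more libraries entered a limma 3.58.1 fit (R 4.3.3) of log2(FPKM + 1) with an expression trend in the prior variance, no covariate and 8 residual degrees of freedom. P-values were adjusted by Benjamini-Hochberg over all genes, with a threshold of 0.05. The fit was tested on simulated data. Alternatives changed scaling, pseudocount, filter, variance model and libraries.

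Statistics are given for genes called and at 5 FPKM or more in 1 library, and for those at 20 FPKM or more, called or not. Fzd3, Fzd4, Fzd6, Fzd10, Rspo2 and Axin2 were added after their values were seen. Of the 82 further genes, the 5 highest and 5 lowest changes among those called with a group mean of 5 FPKM are named. The genes, lists and tests were chosen with earlier results of these data known. In MSTN+/- libraries, and in wild-type replicates 1, 2 and 3, summed FPKM was 64.3 to 146 and 5.04, 220 and 370 for 4 epithelial markers, 19.0 to 28.6 and 2.97, 28.8 and 25.7 for 4 endothelial markers, and 4.03 to 14.3 and 16.4, 11.8 and 12.0 for 4 macrophage markers. Of these, Krt8 and Tek were called higher and Lyz2 lower, and no other was called. Against wild-type replicates 2 and 3, Cdh1, Epcam and Pecam1 were lower in every MSTN+/- library. Cdh1 was at 11.26 to 28.86 FPKM, against 0.06, 100.22 and 157.88 FPKM in wild type. Epcam was at 12.85 to 31.32 FPKM, against 0.31, 95.41 and 151.76 FPKM, and Pecam1 at 0.09 to 5.75 FPKM, against 0.06, 26.36 and 24.27 FPKM. No sequences are printed, since none were used here. Figures were drawn with matplotlib 3.10.9.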

Additional observations from a re-analysis of the deposited data

Results flagged for a closer look

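In 7 of 33 pathway genes that reached 1 FPKM in at least 1 MSTN+/- library, 1 of the 7 libraries stood apart, with a gap to its neighbour of over 0.568 of the group's range. The nominal chance rate is about 1 in 20 groups. The share flagged over all genes is not given, and the flags fall in MSTN+/- replicates 4, 5 and 7 alone. Genes of 1 library do not replicate one another, so the count is not read as an excess in this pathway.

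In MSTN+/- replicate 5, Wnt5a was at 19.33 FPKM, above a next value of 11.38 FPKM, and Axin2 at 4.98 FPKM, above 1.56 FPKM. In replicate 4, Wnt7b was at 3.90 FPKM, above 1.75 FPKM, and Lef1 at 7.80 FPKM, above 3.79 FPKM. In replicate 7, Lrp5 was at 35.52 FPKM, above 27.61 FPKM, Dkk3 at 42.01 FPKM, above 24.10 FPKM, and Ctnnb1 was low, at 203.99 FPKM, under 220.92 FPKM.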

How the results depend on the processing

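For 38 named genes, 605 of 712 values under alternatives kept direction and side of the threshold, 58 lost a call, 25 gained one and 24 turned. The calls of Sfrp1, Sfrp2, Dkk2 and Tcf7l2 held under all 19, as did those of Sfrp4 and Wnt2, whose direction the filter favoured. Over all genes tested the median log2 difference was 0.17 on the deposited scale, 0.14 with TPM, -0.00 with median-of-ratios and -0.10 with quantile scaling, and the share of calls that were higher was 71.3%, 63.8%, 50.3% and 42.7%. Without counts, depth gives no interval for low genes. No paired analysis was possible because the labels do not link any MSTN+/- library to a wild-type library. The cause of each change was not tested.

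Pathway genes called higher, 13 with all libraries, numbered 20 with library weights, 7 against wild-type replicate 1 alone, and 8 to 19 when 1 library was left out. Those called lower, 2 with all libraries, numbered 5 with library weights, 5 with quantile normalization, 4 against wild-type replicate 1 alone, and 1 to 5 when 1 library was left out. Further pathway genes called higher, 25 with all libraries, numbered 38 with library weights, 16 at a mean of at least 5 FPKM, 16 with median-of-ratios scaling, 16 against wild-type replicate 1 alone, and 15 to 40 when 1 library was left out. Those called lower, 9 with all libraries, numbered 14 with TPM, 21 with library weights, 15 with median-of-ratios scaling, 17 with quantile normalization, and 4 to 20 when 1 library was left out. The share of all genes called in each direction is not given for scaling, weights or the filter, so those counts are not read alone.

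Of the 24 turned values, 12 were against wild-type replicate 1 alone: Ctnnb1 (-0.028), Dkk3 (-0.98), Fzd1 (-0.65), Fzd2 (-0.98), Fzd4 (-0.73), Fzd6 (-1.21), Lef1 (0.56), Rspo3 (-0.16), Tcf7l1 (0.85), Wnt5a (-1.07), Ctbp2 (0.29) and Wisp2 (-0.049). Scaling turned Ctnnb1 (-0.020 with TPM, -0.18 with median-of-ratios), Fzd4 (-0.12 with quantile) and Fzd6 (-0.049 with median-of-ratios, -0.32 with quantile). Leaving out 1 library gave Ctnnb1 -0.0078 to 0.073, Fzd6 -0.22 to 0.79, Tcf7l1 -0.55 to 0.20 and Rspo2 -0.57 to 0.51, each turned by wild-type libraries. Rspo2 was also turned by library weights (0.45).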
